A study of Mus musculus with 16 samples.

Results

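Interleukins are secreted proteins by which leukocytes signal to each other, and each acts through a receptor built from several chains, of which some bind 1 cytokine and others are shared. The genes described here were taken from the exon count table by symbol, as all symbols that begin with Il and a digit except Il1a, Il1b, Il1rn, Il1r2, Il18 and Il34. Of 83 symbols with this pattern 6 were left out, so that 77 of the 24411 genes of the table remained. They comprised 34 cytokines, 40 receptor chains and 3 genes that share the prefix but are neither, namely a binding protein, an enzyme and an antisense transcript.

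RNA had been sequenced from 8 bone marrow chimeras, C57BL/6J wild-type recipients that were irradiated with 950 cGy and given congenic marrow carrying CD45.1. The 4 LPS mice (1 to 4) received 2.5 mg/kg lipopolysaccharide into the peritoneum and were killed after 12 h, and the 4 control mice (5 to 8) were not injected. From each brain, Ly6C- Ly6G- CD11b+ cells with low CD45.1 (engrafted cells) and with low CD45.2 (host microglia) were sorted, which gave 4 groups of 4 libraries. The labels give 3.5 or 9 months between transplantation and challenge without assigning mice to either, and the study's text names 9 months for the LPS experiment. Engrafted cells therefore descended from transplanted marrow in all 8 mice, and the host microglia had all been irradiated, so that no group came from an untransplanted brain. For the donors, the study's text names wild-type CD45.1 marrow for this experiment and its methods Cx3cr1GFP or CX3CR1Cre:R26-RFPfl/fl mice for chimeras in general, and the labels assign neither. The age of the mice at sampling was not given in the labels.

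Between 395283 and 1203597 reads were counted on genes per library, and the engrafted library of LPS mouse 4 was the shallowest. A count of 0 allows up to 3 reads, which was 2.39 to 8.41 CPM depending on the library (CPM being counts scaled to a common library size), and such limits cover counting error only. The brain macrophage markers Itgam, Csf1r and Cx3cr1 together reached 8613 to 9272 CPM in engrafted control, 3828 to 4319 CPM in engrafted LPS, 9652 to 10925 CPM in host control and 5583 to 7287 CPM in host LPS libraries. A list of 10 T and NK cell markers summed to 2.44 to 33.6 CPM. None of 7 mast cell and basophil markers had a read, and B cell markers summed to 15.9 to 77.5 CPM, with Cd79a and Pax5 at 0 throughout. Dendritic cell markers (6 genes) summed to 13.4 to 37.8 CPM in engrafted and at most 8.03 CPM in host libraries. A list of 6 monocyte markers reached 1043 to 2400 CPM in engrafted cells after LPS, against 61.2 to 103 CPM in engrafted control cells and at most 23.5 CPM in host microglia. A list of 9 neutrophil markers summed to 24.4 to 1240 CPM in engrafted cells and at most 15.95 CPM in host microglia, and 5 astrocyte markers to 146 to 253 CPM in host microglia and 3.28 to 25.3 CPM in engrafted cells.

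Microglia and macrophages are known both as sources of interleukins, above all of IL-1, IL-6, IL-10 and IL-12 family members, and as cells that read interleukins made by lymphocytes and stromal cells. The common gamma chain serves the receptors of IL-2, IL-4, IL-7, IL-9, IL-15 and IL-21, gp130 serves the IL-6 and IL-11 receptors, and the IL-17, IL-10 and IL-1 receptor families use chains of their own. Receptors with gamma chain or gp130 signal through JAK kinases and STAT factors, and those of the IL-1 family through MyD88. LPS, a component of bacterial outer membranes, acts on myeloid cells through TLR4.

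Of the 77 genes, 57 had a read in at least 1 library and 20 had none. Among those without a read were the cytokines Il17a, Il5, Il9, Il21, Il22 and Il31, and the receptor chains Il23r and Il20ra. Of the 57, 26 had 3 reads or fewer in every library. 20 genes passed the filter on low counts in at least 1 fit and were tested, and 11 of these were called in at least 1 comparison, a call being an adjusted p below 0.05 with an absolute log2 fold change above 1. The share of all genes called in at least 1 comparison was not computed, so the 11 are a plain count. Shares for single comparisons are given below. By role, 4 of 34 cytokines were tested, against 6 of 10 receptor chains of the common gamma chain family and IL-13, 1 of 2 of the common beta chain family, 3 of 9 of the gp130 and IL-12 family, 2 of 6 of the IL-10 family, 1 of 5 of the IL-17 family and 1 of 8 of the IL-1 family. The reads come from the 3' ends of transcripts, so levels are compared between groups and not between genes. In sorted populations, a larger share of expressing cells and more RNA per cell cannot be told apart.

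The 250 bases before the transcription start are shown for 5 called genes, picked after their responses to LPS were seen. The windows shown are from RefSeq promoters on GRCm38.p6, all on the plus strand. Il18rap (chr1:40515112-40515361) and Il15ra (chr2:11705462-11705711, the second of its listed starts) encode receptor chains that rose with LPS in both populations. Il6 (chr5:30012864-30013113) is a cytokine that rose in host microglia. Il4ra (chr7:125552021-125552270) and Il21r (chr7:125603179-125603428) are neighbouring genes that changed in opposite directions. Capitals mark matches to any of 4 motifs on either strand: the NF-kB consensus, AP-1 (TGANTCA), the interferon-stimulated response element ISRE (GAAANNGAAA) and the STAT site GAS (TTCNNNGAA).
Il18rap: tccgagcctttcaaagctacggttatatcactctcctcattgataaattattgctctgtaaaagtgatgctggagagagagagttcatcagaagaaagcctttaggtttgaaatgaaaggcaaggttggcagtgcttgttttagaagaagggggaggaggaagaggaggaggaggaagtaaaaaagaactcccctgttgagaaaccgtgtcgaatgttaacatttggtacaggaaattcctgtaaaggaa
Il15ra: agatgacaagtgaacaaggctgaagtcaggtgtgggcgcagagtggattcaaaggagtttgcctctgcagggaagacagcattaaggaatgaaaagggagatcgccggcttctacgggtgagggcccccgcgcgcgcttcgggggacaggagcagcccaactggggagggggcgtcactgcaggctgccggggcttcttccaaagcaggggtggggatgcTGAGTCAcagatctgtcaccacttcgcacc
Il6: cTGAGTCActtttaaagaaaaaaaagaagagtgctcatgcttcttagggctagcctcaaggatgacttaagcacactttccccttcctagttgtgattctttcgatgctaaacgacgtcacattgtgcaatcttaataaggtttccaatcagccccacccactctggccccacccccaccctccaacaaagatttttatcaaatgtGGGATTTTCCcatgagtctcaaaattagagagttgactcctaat
Il4ra: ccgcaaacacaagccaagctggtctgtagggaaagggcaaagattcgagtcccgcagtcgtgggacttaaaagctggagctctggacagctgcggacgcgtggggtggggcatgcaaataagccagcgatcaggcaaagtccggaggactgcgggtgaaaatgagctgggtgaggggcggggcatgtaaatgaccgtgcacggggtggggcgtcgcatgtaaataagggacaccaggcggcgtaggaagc
Il21r: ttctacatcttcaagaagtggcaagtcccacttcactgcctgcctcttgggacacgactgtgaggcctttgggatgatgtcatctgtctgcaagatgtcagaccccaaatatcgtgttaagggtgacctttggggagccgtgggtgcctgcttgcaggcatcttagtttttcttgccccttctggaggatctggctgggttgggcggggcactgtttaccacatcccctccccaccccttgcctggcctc

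The Il6 window held 1 NF-kB match, whose first base lay at -44 from the start, and 1 AP-1 match at -249. The Il15ra window held 1 AP-1 match at -30, and the window of its other start, which is not shown, held none. The windows of Il18rap, Il4ra and Il21r held none of the 4 motifs, which says only that these letters are not in these windows. Those of the called genes Il12b, Il2rg, Il3ra and Il6st, which are not shown, also held none. Among tested genes that were not called, Il16 had NF-kB and AP-1 matches and Il7r a GAS match. Whether matches go with the response to LPS was not tested. Of 32851 promoters of the same length, 3.90% held the NF-kB consensus, 6.75% AP-1, 2.98% ISRE and 7.02% GAS. Promoters were matched for 61 of the 77 genes and 16 of the 20 tested. A match is a description of the letters and not of binding.

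The LPS challenge asks how interleukin and receptor transcripts differ 12 h after a systemic inflammatory stimulus, separately in engrafted cells and host microglia. In engrafted cells, 5 of 17 tested genes rose (Il18rap, Il15ra, Il2rg, Il4ra and Il3ra) and 2 fell (Il15 and Il21r), where 10.2% of all 7609 genes tested were called higher and 11.3% lower. In host microglia, 7 of 19 rose (Il18rap, Il15ra, Il12b, Il4ra, Il2rg, Il17ra and Il6) and 2 fell (Il15 and Il21r), where 7.66% of 8238 genes were called higher and 10.4% lower. For LPS, Il12b and Il6 were tested in host microglia only. Il18rap in both populations, Il15ra and Il3ra in engrafted cells, and Il12b and Il6 in host microglia passed the filter only through the LPS libraries. Il15 passed it only through the control libraries in both. For these genes, a call in the direction seen was favoured in advance. The median log2 fold change was -0.05 over the genes tested in engrafted cells and 0.10 in host microglia, against -0.01 and 0.01 over all genes tested. 6 genes (Il18rap, Il15ra, Il4ra, Il2rg, Il15 and Il21r) were called in the same direction in both populations, which were sorted from the same mice. The share of all genes called in both was not computed, so this count cannot be set against one. Adjusted p-values are those of edgeR's quasi-likelihood fits, corrected by the Benjamini-Hochberg procedure over every gene tested, unless stated, and values of single libraries are given in the order of mice 5 to 8 for control and 1 to 4 for LPS.

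**Figure D1:**
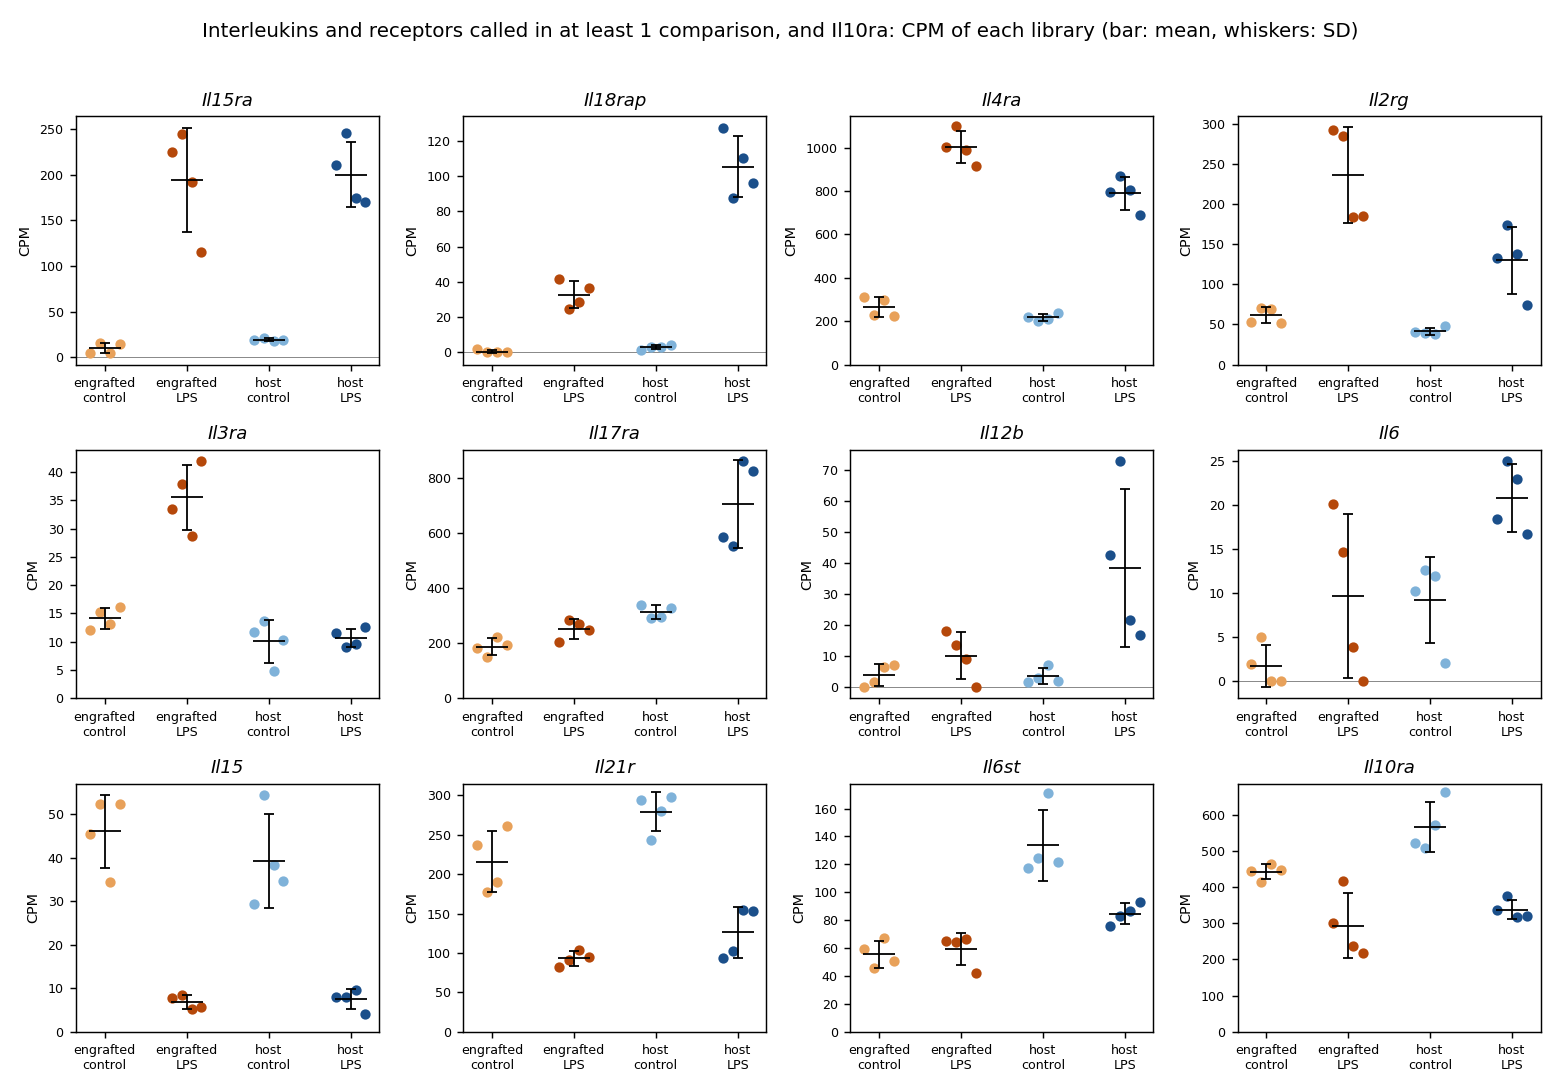
CPM on linear axes, 1 point per library, for the 11 genes called in at least 1 comparison and for Il10ra, in engrafted control, engrafted LPS, host control and host LPS libraries (n = 4 each). Bars are means and whiskers SD. Il18rap and Il15ra stand far above their controls in both populations after LPS, Il15 and Il21r below them, and Il3ra is raised in engrafted LPS libraries, at 28.6 to 42.1 CPM.

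Receptor chains of the common gamma chain family made up 4 of the called genes. Il15ra (NM_001271500, chr2:11627339-11655612 on mm9) encodes the chain that binds IL-15 and presents it to neighbouring cells. Its levels in engrafted cells were 5.04, 15.2, 4.92 and 14.4 CPM without LPS and 225, 245, 193 and 115 CPM with LPS. In host microglia they were 19.0, 21.4, 17.5 and 18.4 CPM without and 211, 245, 175 and 170 CPM with LPS. The lowest LPS library was above the highest control library in both populations. The log2 fold change was 4.35 ± 0.31 (SE, adjusted p = 1.69e-09) in engrafted cells and 3.38 ± 0.19 (adjusted p = 1.78e-11) in host microglia. In the control mice, the log2 difference of engrafted cells from host microglia was -0.97 ± 0.37 and did not pass the test (adjusted p = 0.0555), although no engrafted library overlapped a host library. Il15ra passed the filter in that comparison only through the host libraries, which favoured a lower engrafted value in advance. After LPS the populations overlapped, with means of 194 ± 57.2 and 200.3 ± 35.2 CPM (SD, n = 4).

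The cytokine itself moved the other way. Il15 (NM_001254747, chr8:84855523-84926485) was at 45.3, 52.3, 34.4 and 52.2 CPM in engrafted control libraries and at 7.83, 8.54, 5.20 and 5.61 CPM after LPS. In host microglia, 29.3, 54.4, 38.3 and 34.7 CPM in controls compared with 8.03, 7.98, 9.66 and 4.17 CPM after LPS. No LPS library reached a control library in either population. The log2 fold change was -2.73 ± 0.32 in engrafted cells (adjusted p = 1.6e-06) and -2.38 ± 0.30 in host microglia (adjusted p = 1.67e-06). The LPS values rest on 2 to 8 reads per library. Engrafted cells and host microglia overlapped without LPS (adjusted p = 0.415), and after LPS, where the gene was too low to be fitted in this comparison, an exact permutation test gave p = 0.686.

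The IL-4 and IL-21 receptors also went in opposite directions. Il4ra (NM_001008700, chr7:132695796-132722988) and Il21r (NM_021887, chr7:132746943-132777084) encode the chains that bind IL-4 and IL-21, both pair with the common gamma chain, and on mm9 23954 bases with no other gene of the table lie between them. Il4ra in engrafted cells was at 312, 231, 298 and 225 CPM without and 1004, 1099, 991 and 917 CPM with LPS. In host microglia it was at 219.6, 203, 211 and 236 CPM without and 794, 867, 806 and 689 CPM with LPS. Each LPS library was above each control library, with a log2 fold change of 1.87 ± 0.18 in engrafted cells (adjusted p = 1.11e-07) and 1.85 ± 0.14 in host microglia (adjusted p = 1.37e-09). The 2 estimates differed by 0.01 ± 0.22 in the interaction fit (adjusted p = 0.988). Il21r in engrafted cells was at 237, 177, 190.1 and 261 CPM without and 81.7, 91.5, 104 and 95.3 CPM with LPS. In host microglia it was at 294, 244, 281 and 298 CPM without and 94.0, 103, 155 and 153 CPM with LPS. Here every LPS library was below every control library, with a log2 fold change of -1.26 ± 0.18 in engrafted cells (adjusted p = 1.74e-05) and -1.17 ± 0.17 in host microglia (adjusted p = 1.07e-05).

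Il2rg (NM_001308535, chrX:98459724-98463594) encodes the common gamma chain itself. Engrafted cells had 53.4, 70.8, 68.8 and 52.2 CPM without and 292, 284, 183 and 185 CPM with LPS. Host microglia had 41.0, 38.8, 38.3 and 48.0 CPM without and 133, 174, 138 and 73.7 CPM with LPS. The groups did not overlap in either population, and the log2 fold change was 1.92 ± 0.21 in engrafted cells (adjusted p = 4.46e-07) and 1.64 ± 0.22 in host microglia (adjusted p = 3.06e-06). Engrafted cells had more Il2rg than host microglia under both conditions at less than the fold threshold, with log2 differences of 0.61 ± 0.19 without LPS (adjusted p = 0.0172) and of 0.89 ± 0.24 after LPS (adjusted p = 0.015). Leaving out each library in turn, the difference after LPS ranged from 0.70 to 1.06 and its adjusted p from 0.0053 to 0.0591. It was called without engrafted mouse 3 or host mouse 2. The chains that complete the IL-2 receptor had few reads, with 10 for Il2ra and 5 for Il2rb over the 16 libraries. Il13ra1, which pairs with the IL-4 receptor chain, was at 51.4 to 67.2 CPM in engrafted control and 28.0 to 39.2 CPM in engrafted LPS libraries, a log2 fold change of -0.77 ± 0.22 (adjusted p = 0.0102) under the fold threshold. In host microglia it was at 46.8 to 80.6 and 39.0 to 56.8 CPM, which overlapped (adjusted p = 0.36).

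**Figure D2:**
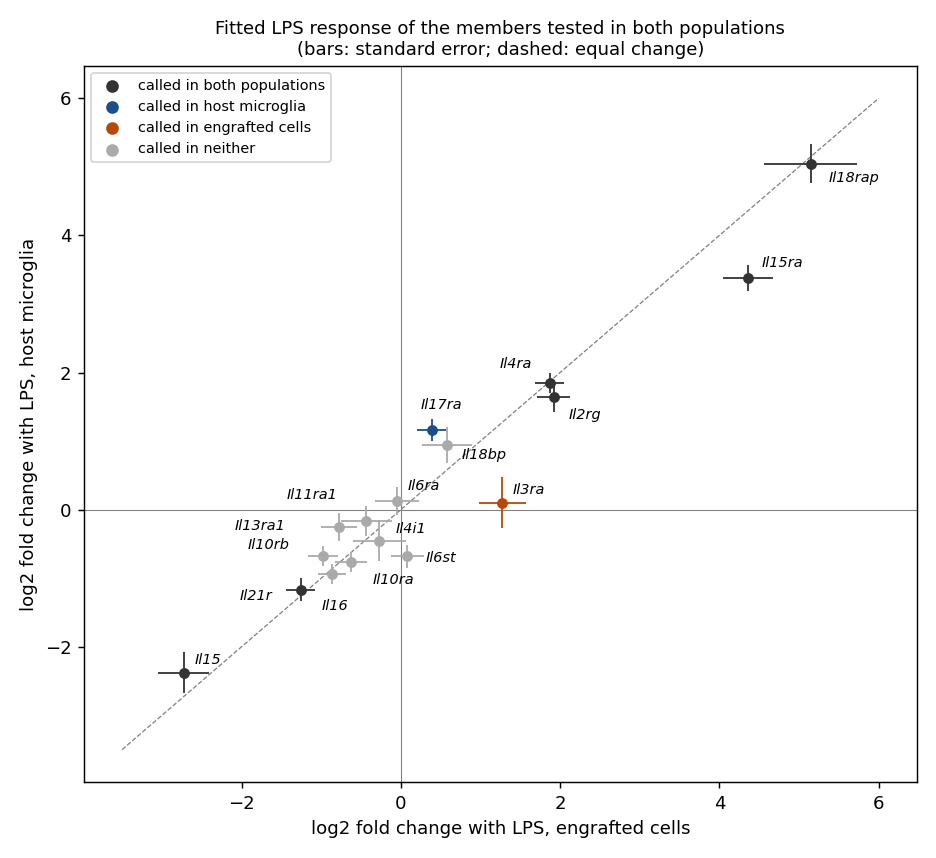
Fitted log2 fold change with LPS in engrafted cells (horizontal axis) against that in host microglia (vertical axis) for the genes tested in both, with standard errors as bars and the line of equal change dashed. Colours mark where a gene was called; Il3ra, at 1.27 in engrafted cells and 0.10 in host microglia, and Il17ra, at 0.39 and 1.16, lie on either side of the line.

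In the IL-1 receptor family, Il18rap (NM_010553, chr1:40572207-40608550), the accessory chain of the IL-18 receptor, went from near 0 to a measurable level in both populations. Engrafted control libraries held 2, 0, 0 and 0 reads and engrafted LPS libraries 37, 20, 22 and 13 reads, or 41.4, 24.4, 28.6 and 36.4 CPM. Host microglia had 1.46, 2.91, 3.19 and 4.08 CPM without and 127, 87.7, 110 and 95.99 CPM with LPS. The ratio of summed reads per library size in engrafted cells was 44.6 (92 against 2 reads, exact 95% interval 12.0 to 374 for counting error only), and the fitted log2 value of 5.15 ± 0.59 (adjusted p = 9.77e-07) depends on the prior count. Both control reads came from mouse 5, and without that library, with the remaining controls at 0, the fitted value was 7.40 (adjusted p = 1.69e-05). In host microglia the log2 fold change was 5.05 ± 0.28 (adjusted p = 1.34e-11). After LPS, every engrafted library was below every host library, at 32.7 ± 7.64 against 105 ± 17.3 CPM (SD, n = 4), a log2 difference of -1.67 ± 0.22 (adjusted p = 2.69e-05). The chain that binds IL-18, Il18r1, whose gene lies 14507 bases away, had 1 read in all 16 libraries.

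The other receptors of this family were too low to be fitted. Il1r1, the signalling receptor of IL-1, had 2, 1, 0 and 0 reads in engrafted control and 9, 12, 7 and 2 reads in engrafted LPS libraries, and the CPM did not overlap (30 against 3 reads, ratio 9.69, interval 3.01 to 49.6). In host microglia, Il1r1 was at 2.39 to 7.77 CPM without and 4.99 to 12.6 CPM with LPS, which overlapped. Without LPS it was lower in engrafted cells than in host microglia with no overlap (3 against 17 reads, ratio 3.95, interval 1.14 to 21.0), and after LPS the means were 9.86 and 9.85 CPM. Il1rap, its accessory chain, had 7 to 25 reads a group and overlapped in all 4 comparisons. Il1rl1, the receptor of IL-33, had 2, 1, 0 and 1 reads in engrafted control libraries against 6, 10, 13 and 8 in host control libraries, which did not overlap at 1.38 ± 0.93 and 9.26 ± 0.97 CPM (SD, n = 4). After LPS, no engrafted library held a read of Il1rl1, whereas host libraries held 7, 0, 5 and 8. Set against a limit of 3 reads over the engrafted group, the ratio was 5.53, without the counting error of the host reads. Host mouse 2 overlapped the engrafted libraries at 0 (exact permutation p = 0.143). IL-33 itself had 6 reads in 3 libraries.

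Among receptors of the IL-17 family, Il17ra (NM_008359, chr6:120413215-120433745), the chain shared by IL-17 receptors, was the only 1 of 5 that could be tested. Engrafted cells had 181, 148, 223 and 194 CPM without and 202, 284, 269 and 247 CPM with LPS. Host microglia had 340, 291, 294 and 329 CPM without and 585, 553, 862 and 825 CPM with LPS. The LPS libraries lay above the controls in host microglia and overlapped them in engrafted cells. The log2 fold change with LPS was 1.16 ± 0.16 in host microglia (adjusted p = 6.66e-06) and 0.39 ± 0.18 in engrafted cells, which did not pass (adjusted p = 0.101). The difference between these responses, -0.78 ± 0.26, did not pass after adjustment (unadjusted p = 0.00488, adjusted p = 0.0699). Il17ra was lower in engrafted cells than in host microglia in both conditions, with no overlap, at log2 differences of -0.69 ± 0.14 without LPS (adjusted p = 0.000488, under the fold threshold) and -1.47 ± 0.22 after LPS (adjusted p = 6.67e-05).

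Il3ra (NM_008369, chr14:15179009-15188004), the chain that binds IL-3 and pairs with the common beta chain, rose in engrafted cells. They had 12.1, 15.2, 13.1 and 16.2 CPM without and 33.6, 37.8, 28.6 and 42.1 CPM with LPS, a log2 fold change of 1.27 ± 0.29 (adjusted p = 0.00187). Host microglia had 11.7, 13.6, 4.79 and 10.2 CPM without and 11.5, 8.97, 9.66 and 12.5 CPM with LPS, which overlapped (log2 fold change 0.10 ± 0.37, adjusted p = 0.85). After LPS, Il3ra was higher in all engrafted than in all host libraries, by 1.73 ± 0.28 on the log2 scale (adjusted p = 0.000233). It passed the filter in that comparison only through the engrafted libraries, which favoured a higher value there in advance. The difference in response was 1.17 ± 0.46 (unadjusted p = 0.0182, adjusted p = 0.148) and did not pass. The monocyte marker list rose in the same 4 libraries, as given above, and its part in the Il3ra value was not tested. The partner chains Csf2rb and Csf2rb2 rose in both populations, Csf2rb by 1.34 ± 0.23 in engrafted cells (adjusted p = 9.07e-05) and 1.79 ± 0.15 in host microglia (adjusted p = 4.76e-09).

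The gp130 and IL-12 receptor family held the single gene called between engrafted cells and host microglia without LPS. Il6st (NM_010560, chr13:113254278-113297068) encodes gp130, the signalling chain of the IL-6 and IL-11 receptors. It was at 59.4, 45.5, 67.2 and 50.4 CPM in engrafted control and 117, 124, 171 and 122 CPM in host control libraries. No engrafted library reached a host library, and the log2 difference was -1.21 ± 0.16 (adjusted p = 2.17e-06). After LPS, engrafted cells had 64.9, 64.7, 66.4 and 42.1 CPM and host microglia 75.7, 82.8, 86.9 and 93.2 CPM. The libraries still did not overlap, at a log2 difference of -0.45 ± 0.19 that did not pass (adjusted p = 0.127). With LPS, Il6st had a log2 fold change of -0.68 ± 0.17 in host microglia (adjusted p = 0.00234, under the fold threshold), while in engrafted cells the value was 0.08 ± 0.21 (adjusted p = 0.789). The difference in response, 0.75 ± 0.25, had an unadjusted p of 0.00584 and an adjusted p of 0.0782. In the control mice the astrocyte marker list summed to 181 to 253 CPM in host and 3.28 to 25.3 CPM in engrafted libraries, and its part in the Il6st value was not tested.

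Il6ra, which binds IL-6 before gp130 is recruited, was at 278 to 299.8 CPM in engrafted control and 365 to 480 CPM in host control libraries, a log2 difference of -0.43 ± 0.13 (adjusted p = 0.0148) under the fold threshold. With LPS it was at 330, 342, 394 and 81.3 CPM in engrafted cells, so that the shallow library of mouse 4 stood apart from the others. The log2 fold change with LPS there was -0.05 ± 0.28, and 0.25 without mouse 4, neither past the test (adjusted p = 0.912 and 0.19). Il11ra1, the IL-11 receptor chain, overlapped between groups in all 4 comparisons and passed no test. Its nearly identical copy Il11ra2 had 18 reads, so that the division of reads between them is uncertain, and Il11ra1 overlaps Ccl27a on the opposite strand.

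**Figure D3:**
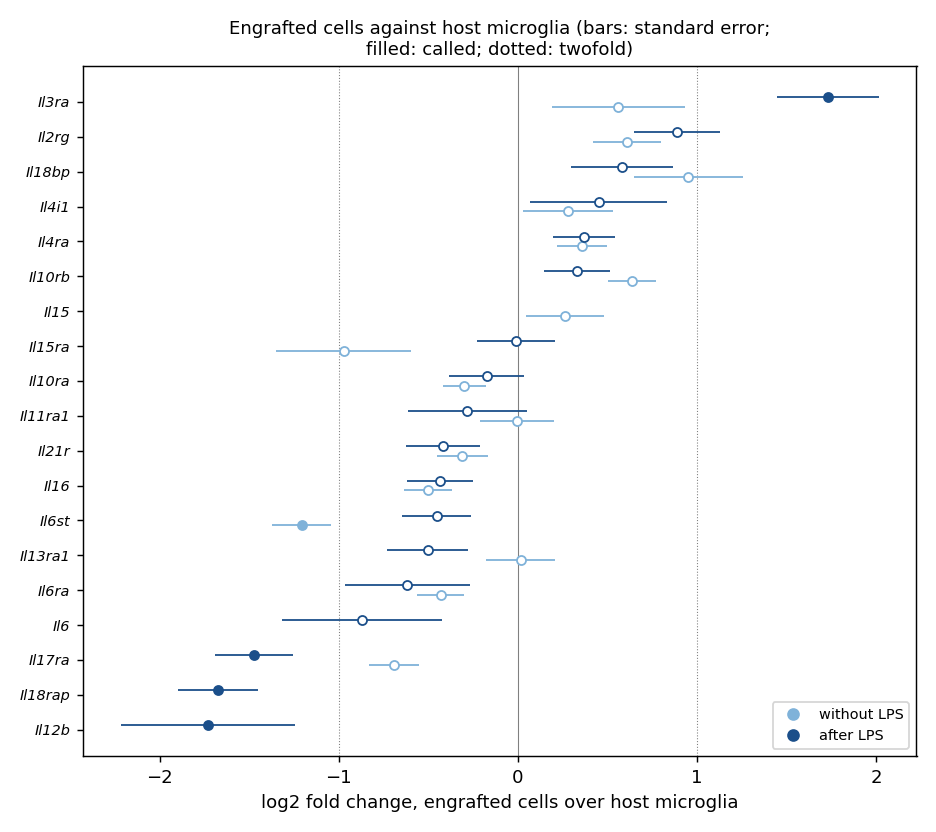
Log2 fold change of engrafted cells over host microglia for each gene tested, without LPS (light) and after LPS (dark), with standard errors as bars, filled symbols for called genes and dotted lines at a log2 fold change of 1 in either direction. Il6st is the only filled point without LPS, at -1.21, and after LPS Il3ra lies to the right at 1.73 and Il12b, Il18rap and Il17ra to the left at -1.73, -1.67 and -1.47.

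Over both conditions, the comparison of engrafted cells with host microglia asks whether cells of marrow origin differ from the microglia of the same brain. Without LPS, 0 of 16 tested genes were called higher and 1 lower in engrafted cells, where 6.25% and 4.73% of all 8042 genes tested were. Of the 16, 11 had an unadjusted p below 0.05, where 36.5% of all genes tested had, and DESeq2 also called 1. After LPS, 1 of 18 was called higher (Il3ra) and 3 lower (Il12b, Il17ra and Il18rap), where 6.73% and 4.34% of 7843 genes were. The median log2 difference over the tested genes was 0.00 without LPS and -0.35 after LPS, against 0.02 and -0.01 over all genes tested. The 2 medians rest on different genes, as Il15 was tested only without LPS and Il6, Il12b and Il18rap only after LPS. Il6 and Il12b passed the filter there only through the host libraries, which favoured lower values in engrafted cells in advance. Il3ra, the gene called higher, passed it only through the engrafted libraries, which favoured a higher value in advance. Without LPS, Il15ra passed only through the host libraries, and Il3ra and Il18bp only through the engrafted ones. A shift between the medians was not tested. The comparisons between populations share libraries with those of LPS, so their values are not independent of them. With the mouse as a replicate block, the same numbers of genes were called, 1 without and 4 after LPS.

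Of the 34 cytokines, Il6, Il12b, Il15 and Il16 were tested. Il6 (NM_031168, chr5:30339654-30346515), an inflammatory cytokine of macrophages and many other cells, had 10.2, 12.6, 12.0 and 2.04 CPM in host control and 18.3, 24.9, 22.9 and 16.7 CPM in host LPS libraries. The groups did not overlap, with a log2 fold change of 1.14 ± 0.36 (adjusted p = 0.0136). The lowest control library was that of mouse 8, and without it the value was 0.81 (adjusted p = 0.0433), under the fold threshold. In engrafted cells, Il6 had 2, 3, 0 and 0 reads without and 18, 12, 3 and 0 reads with LPS, which overlapped (exact permutation p = 0.257). Without LPS the engrafted libraries held 5 and the host libraries 37 reads, and their CPM overlapped (exact permutation p = 0.0571). After LPS the log2 difference of -0.87 ± 0.45 did not pass (adjusted p = 0.218).

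Il12b (NM_001303244, chr11:44213565-44228179) encodes p40, the subunit shared by IL-12 and IL-23. It was at 1.46, 2.91, 7.18 and 2.04 CPM in host control and at 42.4, 72.8, 21.7 and 16.7 CPM in host LPS libraries, a log2 fold change of 3.34 ± 0.48 (adjusted p = 9.52e-06) with no overlap. It was 4.05 without control mouse 7 and 2.83 without LPS mouse 2, and passed in both cases. Engrafted cells had 0, 1.69, 6.55 and 7.199 CPM without and 17.9, 13.4, 9.11 and 0 CPM with LPS, which overlapped (9 against 34 reads, exact permutation p = 0.2). After LPS it was lower in engrafted cells, at a log2 difference of -1.73 ± 0.49 (adjusted p = 0.0189), although mouse 1 of the engrafted group lay above mouse 4 of the host group. The adjusted p was 0.0603 without engrafted mouse 3 and 0.0916 without host mouse 2, whose library held 73 of the 140 host reads. The partner subunits had few reads, with 8 for Il12a (p35) and 7 for Il23a (p19), of which 6 came from host LPS libraries. In unchallenged mice, the engrafted group held 3.86 ± 3.56 CPM of Il12b and the host group 3.40 ± 2.59 CPM (exact permutation p = 0.914).

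Il16, a chemoattractant cytokine that binds CD4, changed by less than the fold threshold in every comparison. With LPS the log2 fold change was -0.86 ± 0.18 in engrafted cells (adjusted p = 0.000577), from 147 to 171 down to 74.9 to 104 CPM. In host microglia it was -0.94 ± 0.15 (adjusted p = 2.16e-05), from 225 to 247 down to 105 to 142 CPM. Without LPS the log2 difference of engrafted cells from host microglia was -0.50 ± 0.13 (adjusted p = 0.00555). In none of these 3 comparisons did the libraries overlap.

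The IL-10 receptor chains were both tested and stayed under the fold threshold. Il10ra, which binds IL-10, was at 443, 415, 464 and 446 CPM in engrafted control and 299.8, 416, 238 and 219 CPM in engrafted LPS libraries, where mouse 2 overlapped the controls. In host microglia it was at 507 to 663 CPM without and 318 to 374 CPM with LPS. The log2 values with LPS were -0.63 ± 0.20 in engrafted cells (adjusted p = 0.0164) and -0.76 ± 0.14 in host microglia (adjusted p = 0.000177). Il10rb, the second chain, likewise had log2 values with LPS of -0.98 ± 0.19 in engrafted cells (adjusted p = 0.000327) and -0.68 ± 0.14 in host microglia (adjusted p = 0.000637). The value in engrafted cells lay close to the threshold, and Il10rb was called with library totals, in the fit of all 16 libraries, and without engrafted control mouse 6 (-1.06) or engrafted LPS mouse 2 (-1.003) or 4 (-1.04). Without LPS, Il10rb was higher in engrafted cells by 0.64 ± 0.13 (adjusted p = 0.000681), at 361 ± 53.0 against 242 ± 15.4 CPM (SD, n = 4).

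The cytokine of these receptors, Il10, was too low for the fit. Engrafted control libraries held 10, 8, 4 and 1 reads and host control libraries 0, 0, 0 and 1, which did not overlap in CPM (ratio of summed reads 33.0, interval 5.35 to 1358). Engrafted LPS libraries held 12, 21, 4 and 1 reads and host LPS libraries 1, 0, 2 and 0, again without overlap (ratio 15.3, interval 4.84 to 77.3). Within engrafted cells, control and LPS overlapped (exact permutation p = 0.629). The neutrophil, monocyte and dendritic cell marker lists were also higher in every engrafted library than in every host library, as given above. Their part in the Il10 reads was not tested. Il20rb, a chain of the IL-20 and IL-24 receptors, had 1, 0, 0 and 0 reads in engrafted control and 7, 6, 8 and 2 in engrafted LPS libraries, and 1, 0, 3 and 1 in host control and 9, 11, 16 and 20 in host LPS libraries. LPS libraries lay above control libraries in both populations, and in engrafted cells the ratio of summed reads was 22.3 (interval 3.62 to 918). Of its ligands, Il19, Il20 and Il24 had no read, and the second chain Il20ra had none.

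Il7r, the IL-7 receptor chain, passed the filter only in the fit of all 16 libraries. It was at 10.1, 13.5, 6.55 and 14.4 CPM in engrafted control, 16.8, 19.5, 9.11 and 5.61 CPM in engrafted LPS, 10.2, 15.5, 12.0 and 6.13 CPM in host control and 4.59, 1.99, 0 and 4.17 CPM in host LPS libraries. Host LPS libraries were below the host control and the engrafted LPS libraries without overlap, with 9 against 44 and 9 against 40 reads. The interaction was 2.29 ± 0.71 on the log2 scale, with an unadjusted p of 0.00327 and an adjusted p of 0.0528. DESeq2, the fit with RLE size factors and the fit without the low count filter called it. Leaving out each library in turn, the adjusted p ranged from 0.035 to 0.127, and it was below 0.05 without engrafted LPS mouse 3 or 4 or host control mouse 8.

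For all genes, the interaction tests whether the response to LPS differed between the populations. None of the 20 tested genes was called by edgeR, 5 of them (Il7r, Il17ra, Il6st, Il3ra and Il15ra) had an unadjusted p below 0.05, and DESeq2 called 1 (Il7r). Of all 8847 genes tested, 4.95% were called and 19.4% had an unadjusted p below 0.05. For Il15ra the difference was 0.98 ± 0.41 (unadjusted p = 0.0243, adjusted p = 0.175). In the edgeR fit with TMM scaling, a difference in response between engrafted cells and host microglia was thus not shown for any of these genes, including those called in only 1 population, while Il7r depends on the tool, the scaling and the libraries as given above.

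**Figure D4:**
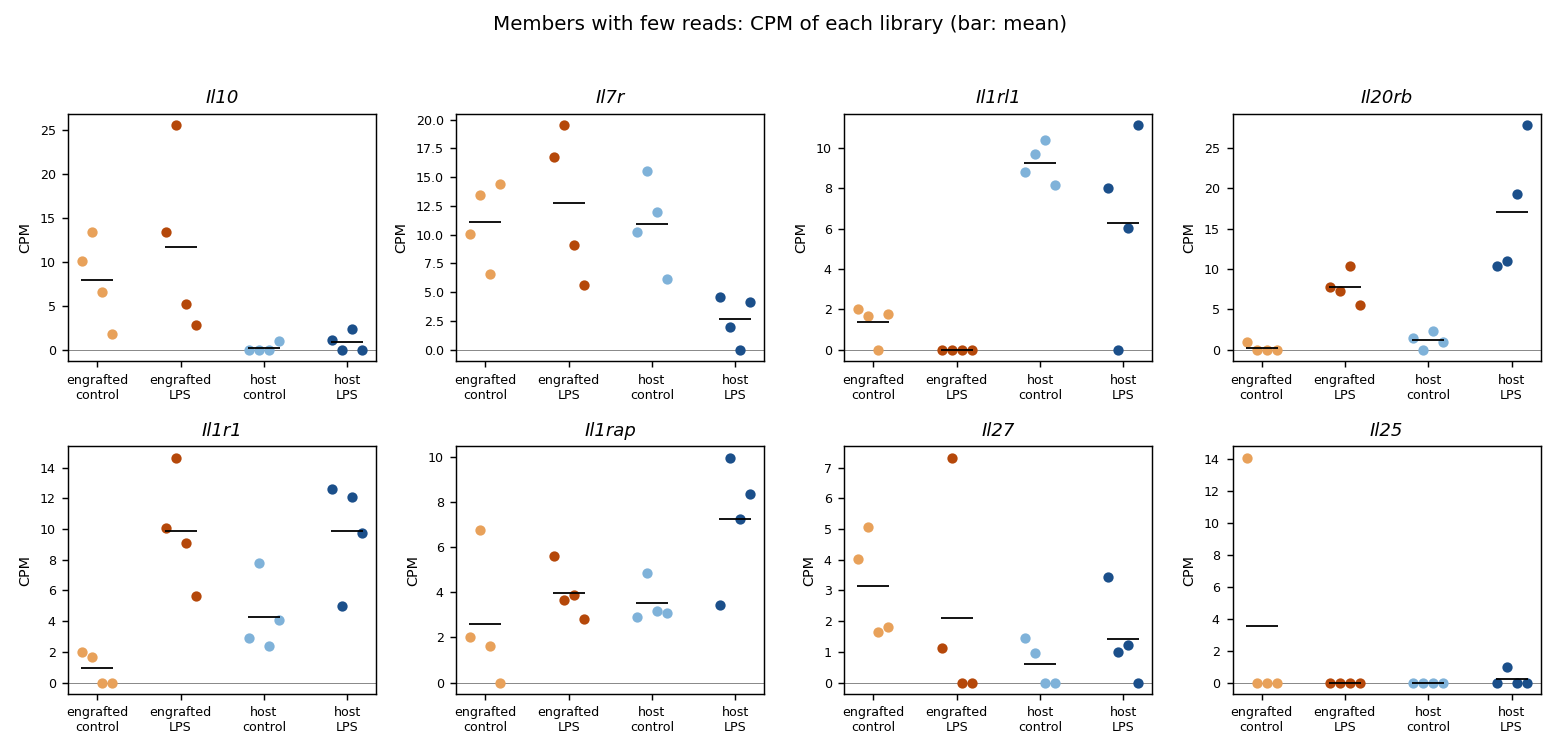
CPM on linear axes, 1 point per library with the mean as a bar, for 8 genes with few reads in the 4 groups (n = 4 each). Il10 is found mainly in engrafted libraries, Il1rl1 in host libraries, Il20rb after LPS, and Il25 in 1 engrafted control library at 14.1 CPM.

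The genes that failed the filter in a comparison but had at least 10 reads over its 8 libraries were compared by an exact permutation test, in 40 tests whose smallest two-sided p is 0.0286. That value was reached in 10 tests, each with no overlap between the groups, and no p was adjusted over them. Without LPS, 4 of 13 genes did not overlap between engrafted cells and host microglia (Il10 and Il27 higher, Il1r1 and Il1rl1 lower in engrafted cells), where 13.6% of all genes equally low did not. After LPS it was 2 of 8 (Il10 and Il7r, both higher in engrafted cells), where 14.9% did not. With LPS it was 2 of 12 in engrafted cells (Il1r1 and Il20rb, both higher) and 2 of 7 in host microglia (Il20rb higher, Il7r lower), where 16.6% and 16.8% did not. Il27, the p28 subunit of IL-27, had 4, 3, 1 and 1 reads in engrafted control and 1, 1, 0 and 0 in host control libraries.

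Reads of several rare transcripts were concentrated in a single library. The engrafted control library of mouse 5 held 14 of the 15 reads of Il25, a cytokine of the IL-17 family, and 8 of the 12 reads of its receptor chain Il17rb. It also held all 3 reads of Il4 and 9 of the 23 reads of Il17rc. It had reads for 40 of the 77 genes, against 21 to 34 in the other libraries, and 13491 genes of the table had a read in it, the most of any library. T and NK cell markers summed to 8.06 CPM in it, against 10.8 to 27.0 CPM in the other engrafted control libraries, and its mast cell and basophil markers were at 0. Il25 and Il17rb overlapped between groups in every comparison in which they were tested.

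The 2 remaining tested genes are soluble proteins. Il18bp, the secreted protein that binds IL-18, was at 22.9 to 42.1 CPM in engrafted control and 9.19 to 19.9 CPM in host control libraries, higher in engrafted cells by 0.95 ± 0.30 on the log2 scale (adjusted p = 0.0211) and under the fold threshold. With LPS it was higher in host microglia by 0.95 ± 0.27 (adjusted p = 0.00685), at 25.0 to 33.3 CPM, and in engrafted cells the value of 0.58 ± 0.31 did not pass (adjusted p = 0.149). Il4i1, a secreted amino acid oxidase, overlapped in all 4 comparisons and shares part of its span with Gm21948 on the same strand, so that its reads are uncertain. The antisense transcript Il1bos had 7 reads.

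Signalling partners whose symbols lack the prefix were followed in a list of 41 genes, comprising further receptor chains and ligands, JAK kinases, STAT factors, adaptors of the IL-1, IL-17 and IL-4 receptors and inhibitors of cytokine signalling. With LPS, 8 of 30 tested were called higher in engrafted cells (Csf2rb, Csf2rb2, Irak3, Myd88, Osm, Socs3, Stat2 and Stat3) and 10 of 30 in host microglia (Csf2rb, Csf2rb2, Irak3, Irs2, Osm, Ptpn11, Socs2, Socs3, Stat2 and Stat3). Over all genes tested, 10.2% and 7.66% were called higher. In host microglia, Socs2, Irak3 and Ptpn11 passed the filter only through the LPS libraries, which favoured a higher call in advance. Host control libraries had 1.46 to 10.4 CPM of Socs2 and 4.39 to 7.15 CPM of Irak3. Clcf1, a cytokine that acts through gp130, was called lower in both populations. Without LPS, 1 of 28 was called lower, where 4.73% of all genes were, and that was Socs3, an inhibitor of signalling through gp130, with 133 ± 28.9 CPM in the engrafted and 523 ± 69.5 CPM in the host group (SD, n = 4), a log2 difference of -1.90 ± 0.15 (adjusted p = 2.78e-10). After LPS, Socs3 was at 1014 to 2178 CPM in engrafted and 973 to 1979 CPM in host libraries (adjusted p = 0.687). Socs3 was the 1 gene of 32 called in the interaction, where 4.95% of all genes were, at 2.10 ± 0.32 (adjusted p = 9.41e-05). Irak3, an inhibitor of IL-1 receptor and TLR signalling, was the 1 gene of 31 called between the populations after LPS, where 6.73% of all genes were called higher. It was higher in engrafted cells by 1.15 ± 0.35 (adjusted p = 0.0282). Engrafted LPS libraries had 71.6, 74.4, 49.4 and 14.02 CPM of Irak3 and host LPS libraries 35.6, 30.9, 15.7 and 18.1 CPM, so that the shallow library of engrafted mouse 4 fell below the host libraries.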

How the data were processed

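The labels describe RNA of sorted cells, captured by poly(A) and made into libraries with a derivation of MARS-seq, a 3'-end method. The authors deposited raw counts of reads on exons of 1 RefSeq model per gene, without normalization. By the study's methods and the submitters' processing notes, reads were mapped with HISAT (0.1.5 in those notes) to NCBI37 (mm9), unique reads were kept, and HOMER counted the sense strand. No removal of PCR duplicates is named, so copies of 1 molecule may add to a count. All 24411 genes were read.

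Groups were taken from the labels. edgeR 4.0.16 in R 4.3.3 was run on the counts of the 8 libraries compared, or of all 16 for the interaction, with a filter on low counts (minimum count 10, total 15), TMM scaling, quasi-likelihood tests and Benjamini-Hochberg adjustment over all genes tested. A gene was called at an adjusted p below 0.05 and an absolute log2 fold change above 1, with a prior count of 0.125. Standard errors were derived by dividing each log2 fold change by the square root of its F. CPM used TMM effective sizes over 16 libraries. Genes below the filter with at least 10 reads went into an exact permutation test (two-sided). DESeq2 1.42.0, RLE size factors, library totals, no filter, a fit of all 16 libraries, leaving out each library and the mouse as a block were tried as alternatives. The scripts were tested on simulated data. Replicates were separate mice.

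Both populations came from the same mice, which the design text states. After removal of group means, the libraries of mice 1 to 8 correlated across genes with their own partner at Pearson's r = 0.154, 0.0118, 0.209, 0.127, 0.0224, -0.0356, 0.0465 and 0.0860. The mean r with libraries from different mice lay between -0.0619 and 0.0102. As the study's methods do not mention such a term, the reported fits were made without a block.

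Members were chosen by symbol, with every tested member named, and the members, partner list and marker lists were chosen with earlier results of these data known. RefSeq promoters were searched on both strands. Of the brain macrophage markers, 3 are summed in the text, a choice made after their values were seen, and some markers are not reported here. Scripts used Python 3.11.15.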

Additional observations from a re-analysis of the deposited data

Results flagged for a closer look

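Within a group of 4, the library at 1 end was checked for a gap to its neighbour that is large against the range of the group. Of 80 groups of the 20 tested genes, 5 held such a library, and chance marks about 1 in 20 groups. Il10rb in host LPS mouse 2 was at 180.5 CPM, with the other 3 at 141 to 146 CPM. Il6st in host control mouse 7 was at 171 CPM, with the others at 117 to 124 CPM, and the call of lower Il6st in engrafted control cells held without that library. In the shallow engrafted LPS library of mouse 4, Il11ra1 was at 64.5 CPM from 23 reads, with the others at 21.96 to 26.02 CPM, and Il6st at 42.1 CPM from 15 reads, with the others at 64.7 to 66.4 CPM. Il18rap in engrafted control mouse 5 was at 2.01 CPM from 2 reads, where the other 3 held none.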

How the results depend on the processing

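Of the log2 fold changes of called genes under the alternatives, 275 kept their direction and their call, 3 kept their direction only, and none turned. The 3 were Il12b after LPS between the populations without engrafted mouse 3 or host mouse 2, and Il6 in host microglia without control mouse 8, as given with these genes. Without LPS, the single call between engrafted cells and host microglia became 2 with library totals (Il15ra added) and 6 without the low count filter. Without the filter, 7 in place of 4 were called after LPS and 13 in place of 7 for LPS in engrafted cells, the added genes there being Il12b, Il17rb, Il1r1, Il20rb, Il25 and Il6, and Il25 rests on 1 library. The interaction gave 1 call (Il7r) in place of 0 with RLE size factors, with DESeq2 and without the filter. When each library was left out in turn, the number of calls ranged from 1 to 3 between the populations without LPS and stayed at 4 after LPS. The genes after LPS did not stay the same, as Il2rg took the place of Il12b without engrafted mouse 3 or host mouse 2. The number ranged from 7 to 8 for LPS in engrafted cells, from 8 to 12 for LPS in host microglia and from 0 to 1 for the interaction. In host microglia, the genes added in some of these fits were Il18bp, Il20rb and Il7r. Beyond Il6st, the calls without LPS were Il15ra without engrafted mouse 6 or 8, Il18bp without mouse 5 or 7 of either population, and Il6 without engrafted mouse 6. With library totals, the median log2 difference of all genes between the populations after LPS was -0.16, against -0.01 with TMM. The cause of these changes was not tested, except that removing the filter tests more genes. With the mouse as a replicate block, 1, 4 and 0 genes were called without LPS, after LPS and in the interaction, and no call of a member changed. Between 395283 and 1203597 reads per library limit the genes with few reads, for which only groups that do not overlap can reach the smallest p of the exact test.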
